A study of Homo sapiens with 28 samples.

Results

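H3K27ac, the acetylation of histone H3 at lysine 27, was compared between late G1 and early G1 of human embryonic stem cells. The members were the 2 samples labelled H3K27ac in late G1 (the KO2 fraction) and in early G1 (the DN fraction), of 28 samples in the series. They hold 32521 peaks in late G1 and 30168 peaks in early G1, together 62689 of the 317841 peaks in the 16 ChIP peak lists. The cells express the Fucci system, fluorescent fusion proteins that accumulate and are degraded at set points of the cycle, and were sorted by flow cytometry, late G1 as the KO2 fraction and early G1 as the DN fraction. Both fractions came from undifferentiated cultures grown free of serum and feeders in chemically defined medium with heregulin, activin, a long IGF-1 analogue and FGF2, and no other treatment is labelled. The line behind the reporter is labelled no further. Each mark was profiled in sonicated chromatin by ChIP-seq, with 1 library per phase, so no test between phases was possible. The intervals below are exact Clopper-Pearson 95% intervals over peaks, treat peaks as independent and cover counting error only.

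H3K27ac is written by the acetyltransferases p300 and CBP. It marks active promoters and active enhancers and sets active enhancers apart from those that carry H3K4me1 alone. H3K4me3 marks active and poised promoters, and H3K27me3, the mark of Polycomb repression, occupies the same lysine as H3K27ac and cannot share that residue with it. In embryonic stem cells, promoters with both H3K4me3 and H3K27me3 are called bivalent and belong to many developmental regulators. At entry into G1 chromatin is rebuilt after mitosis, and passage from early to late G1 prepares cells for S phase.

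A peak was called kept when it overlapped a peak of the other phase by at least 1 bp, gained when it was listed in late G1 with no early G1 partner, and lost when it was listed in early G1 with no late G1 partner. Gained and lost thus describe list membership. Peaks were split into 3 classes: those overlapping an H3K4me3 peak of the same phase, which stand in for promoters; those within 2.5 kb of an H3K4me3 peak of any phase, called near; and those farther away, called distal. Positions are as deposited and were read as hg19. No gene annotation of that build was used here, so regions are given by position, without gene, exon or intron, and the cell type was not checked against marker genes.

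The lists were close in length and in covered DNA but shared only part of their places. They covered 9.44 Mb in late G1 and 9.94 Mb in early G1. Of the late G1 peaks, 16408 of 32521 were gained (50.5%), and of the early G1 peaks, 14744 of 30168 were lost (48.9%, interval 48.3 to 49.4). A gap of up to 500 bp still counted as shared would leave 34.8% gained and 31.6% lost. The kept peaks, 16113 in late G1 and 15424 in early G1, joined into 14006 regions, of which 11302 paired 1 peak with 1 peak. In 1441 regions several late G1 peaks lay on 1 early G1 peak, and in 897 the reverse held.

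Acetylation listed only in late G1 lay mostly far from H3K4me3, and acetylation listed only in early G1 lay most often on it. Of the gained peaks, 12.4% overlapped H3K4me3 of late G1 (11.9 to 12.9), 17.1% were near and 70.5% were distal. Of the lost peaks, 46.6% overlapped H3K4me3 of early G1 (45.8 to 47.4), 11.03% were near and 42.4% were distal. These shares are to be read against those of the whole lists. Of all late G1 peaks 21.6% lay on H3K4me3 and 61.7% were distal, and of all early G1 peaks 40.5% and 48.1%. With the 10000 best-scored peaks of each list, 19.1% of gained and 62.6% of lost peaks lay on H3K4me3. In numbers, 2036 gained peaks and 6865 lost peaks lay on H3K4me3, and 11573 gained and 6253 lost peaks were distal. The lists thus differed more in where their peaks lay than in how many they held.

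**Figure D1:**
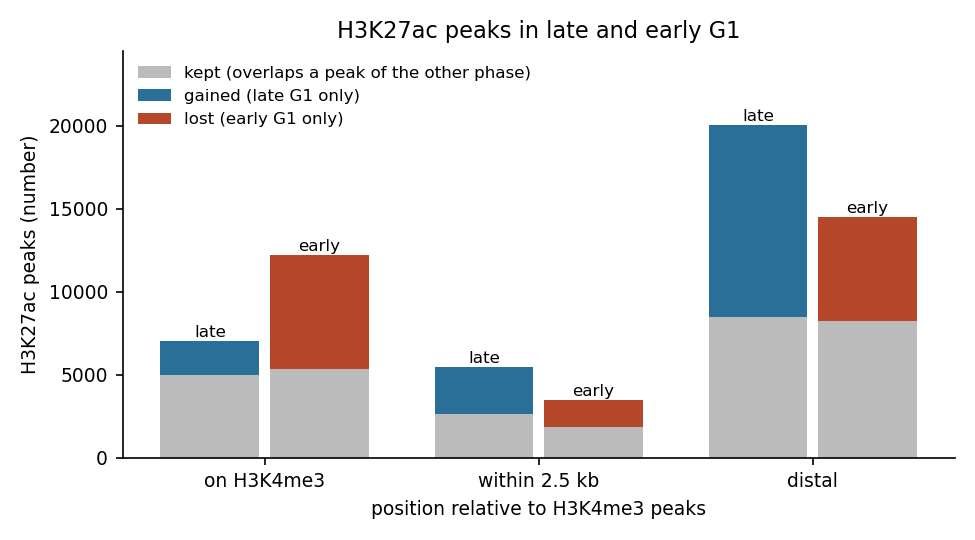
Numbers of H3K27ac peaks in late G1 (left bar of each pair) and early G1 (right bar), by position relative to H3K4me3; grey is kept, blue gained, red lost. The distal bars reach 20052 peaks in late G1 and 14506 in early G1, and the bars on H3K4me3 reach 7027 and 12204.

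Seen from the classes, the 2 directions were unequal. In late G1, 29.0% of the 7027 peaks on H3K4me3 were gained (27.9 to 30.1), against 57.7% of the 20052 distal peaks (57.03 to 58.4). In early G1, 56.3% of the 12204 peaks on H3K4me3 were lost (55.4 to 57.1), against 43.1% of the 14506 distal peaks (42.3 to 43.9). Near peaks stood between, with 51.4% of 5442 gained and 47.02% of 3458 lost. All 3 class shares of gained peaks can be read against 50.5% for the late G1 list, and those of lost peaks against 48.9% for the early G1 list. Covered length followed: acetylated DNA on H3K4me3 came to 2.18 Mb in late G1 and 4.28 Mb in early G1, and distal acetylated DNA to 5.73 Mb in late G1 and 4.63 Mb in early G1.

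The class of a peak depends on the H3K4me3 list of its phase, and these lists differed. H3K4me3 peaks covered 19.2 Mb in late G1 and 22.2 Mb in early G1. The spread of H3K4me3 heights was narrower in late G1, where the 95th percentile was 11.7 times the 5th, than in early G1, where it was 20.2 times. For H3K27ac the same ratios were 2.33 in late G1 and 2.60 in early G1. The part of these differences between libraries in the redistribution was not tested. With H3K4me3 peaks of any phase in place of the same phase, 16.3% of gained and 47.8% of lost peaks lay on H3K4me3.

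Both shares differed with distance from H3K4me3, most sharply between overlap and no overlap. Among peaks overlapping H3K4me3 of any phase, 30.9% of late G1 peaks were gained and 55.8% of early G1 peaks were lost. At 10 to 50 kb the shares were 56.6% gained and 45.8% lost. Beyond 250 kb they were 64.2% gained (61.7 to 66.6) and 36.3% lost (33.1 to 39.6). Of the 6 distance ranges, the remotest had the largest share gained and the smallest share lost. Just inside the 2.5 kb limit, at 1500 to 2500 bp, 60.2% of 931 late G1 peaks were gained and 40.2% of 617 early G1 peaks were lost. In the next 1000 bp, 54.7% of 649 late G1 peaks were gained and 45.1% of 497 early G1 peaks were lost.

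**Figure D2:**
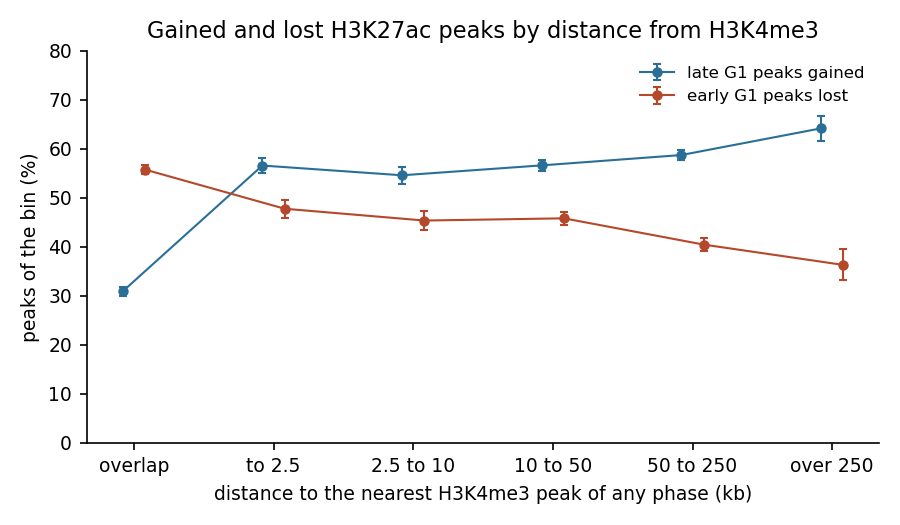
Share of late G1 peaks gained (blue) and of early G1 peaks lost (red) by distance in kb to the nearest H3K4me3 peak of any phase, with exact 95% intervals. The curves cross between overlap and 2.5 kb: gained shares run from 30.9% at overlap to 64.2% beyond 250 kb, lost shares from 55.8% to 36.3%.

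Unshared distal peaks differed in how close the other phase's acetylation lay. Of the gained distal peaks, 27.01% had an early G1 peak within 500 bp, with a median distance of 4.98 kb. Of the lost distal peaks, 43.5% had a late G1 peak within 500 bp, with a median of 0.626 kb. On H3K4me3 the order was opposite, with 47.1% of gained peaks (median 0.551 kb) and 26.8% of lost peaks (3.85 kb) that close. Gained distal and lost H3K4me3 peaks were thus the more isolated ones, and the others more often lay beside a peak of the other phase. The more isolated sets were also those for which the other phase held fewer peaks of the class. There were 14506 distal peaks in early G1 and 20052 in late G1, and 7027 peaks on H3K4me3 in late G1 and 12204 in early G1. The part of these numbers in the distances was not tested.

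Width separated kept from unshared peaks in both phases. Kept peaks had a median width of 300 bp in late G1 and 350 bp in early G1, whereas the medians of gained and lost peaks were both 175 bp. Only 2.45% of gained and 3.45% of lost peaks reached 500 bp, against 25.8% of kept peaks in late G1 and 33.6% in early G1. Of peaks of at least 1000 bp, 736 of 747 in late G1 and 1030 of 1042 in early G1 were kept. Long peaks thus nearly always touched a peak of the other phase, and unshared peaks were mostly short. A long peak counts as kept when any part of it overlaps, so the rule itself favours long peaks. How much of a long peak was shared was not measured. With overlap of at least 50% of a peak, 60.6% of late and 62.1% of early G1 peaks were unshared, a setting not split by width.

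The contrast between classes was smallest among the longest peaks. Among peaks under 150 bp, 51.1% of late G1 peaks on H3K4me3 were kept, against 18.5% of distal ones, while in early G1 16.2% on H3K4me3 were kept and 30.2% of distal ones. Among peaks of 150 to 250 bp, the kept shares in late G1 were 64.0% on H3K4me3 and 30.9% for distal peaks. In early G1 they were 24.7% on H3K4me3 and 45.2% for distal peaks. The order of the classes was therefore opposite in the 2 lists. Among peaks of at least 1000 bp the intervals overlapped, with 99.4% on H3K4me3 (96.7 to 99.98) and 98.3% of distal peaks (96.7 to 99.3) kept in late G1, and 98.03% (96.3 to 99.1) and 99.4% (98.2 to 99.9) in early G1.

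Height gave the same picture. The deposited signal was used as peak height. The sources used here do not give its scale, so heights are compared within a list or relative to the median of kept regions in the same library. That median was 27.1 in late G1 and 30.7 in early G1. Gained peaks had quartiles of height of 19.5 and 24.1 in late G1, and lost peaks 21.2 and 27.1 in early G1, next to 5th percentiles of 18.3 and 19.9 for these lists. Unshared peaks were thus mostly low ones.

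Peaks of the same height differed by class. In the fifth height decile of the late G1 list, 64.6% of peaks on H3K4me3 and 32.8% of distal peaks were kept. In the fifth decile of the early G1 list, 28.4% of peaks on H3K4me3 and 52.9% of distal peaks were kept. In the top decile the kept shares in late G1 were 91.7% on H3K4me3 and 91.1% for distal peaks, and in early G1 87.8% on H3K4me3 and 97.5% for distal peaks. Among these tallest early G1 peaks, 1404 of 1599 on H3K4me3 were kept, compared with 988 of 1013 distal peaks.

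**Figure D3:**
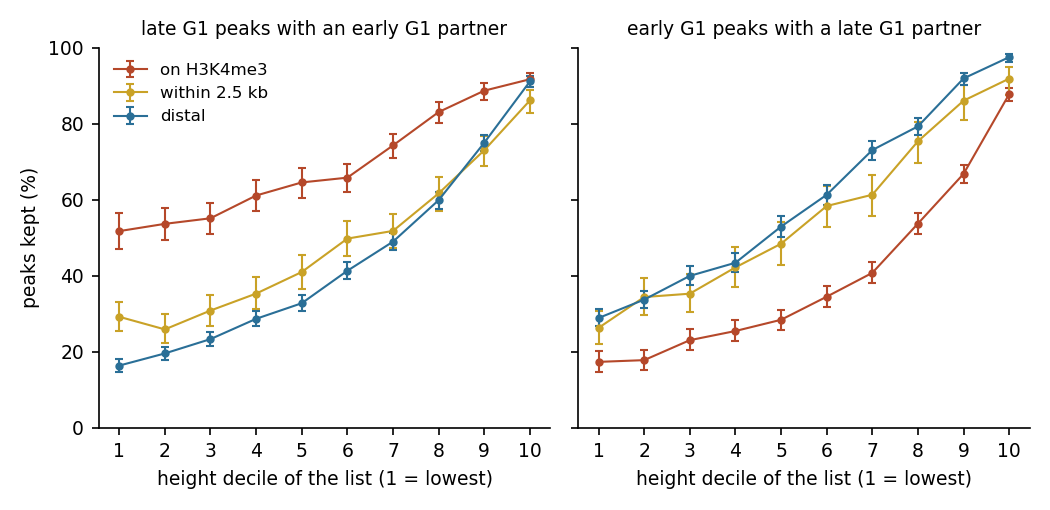
Share of H3K27ac peaks kept by height decile of their own list (decile 1 lowest), for late G1 (left) and early G1 (right), by class, with exact 95% intervals. In late G1 the peaks on H3K4me3 lie above the distal ones, by the least in decile 10 (91.7% and 91.1%); in early G1 they lie below the distal ones in all 10 deciles.

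Kept regions leaned the same way as list membership. Heights were present for 13223 kept regions on chromosomes 1 to 21. The log2 ratio of relative height, late over early G1, had a median of -0.17 over 4153 regions on H3K4me3 (quartiles -0.50 and 0.15), -0.01 over 2121 near regions and 0.10 over 6949 distal regions (-0.18 and 0.37). Of the regions on H3K4me3, 35.8% stood relatively higher in late G1, against 60.2% of the distal regions. The class medians thus differed by -0.27 on the log2 scale, a small shift beside the spread within each class. Classed in both phases, the 4048 regions on H3K4me3 in both had a median of -0.18, and the 781 that lay on H3K4me3 in early G1 and near it in late G1 had -0.25. The 1332 regions near in both phases had 0.12 and thus resembled the distal ones.

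Large changes within kept regions were rare. A relative height at least 2-fold higher in late G1 was found in 250 of 13223 kept regions (1.89%), and one at most 0.5 times that of early G1 in 313 (2.37%). On H3K4me3, 58 regions (1.40%) were at least 2-fold higher and 200 (4.82%) at most 0.5 times, while 119 distal regions (1.71%) were at least 2-fold higher and 41 (0.590%) at most 0.5 times. Kept regions on H3K4me3 were also narrower in late G1, with a median acetylated width of 300 bp in late G1 and 425 bp in early G1, and 69.1% were wider in early G1. Distal kept regions had a median width of 350 bp in both phases. Across the 13223 regions the heights of the 2 libraries had a Spearman rho of 0.402, a description over regions of the same libraries.

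**Figure D4:**
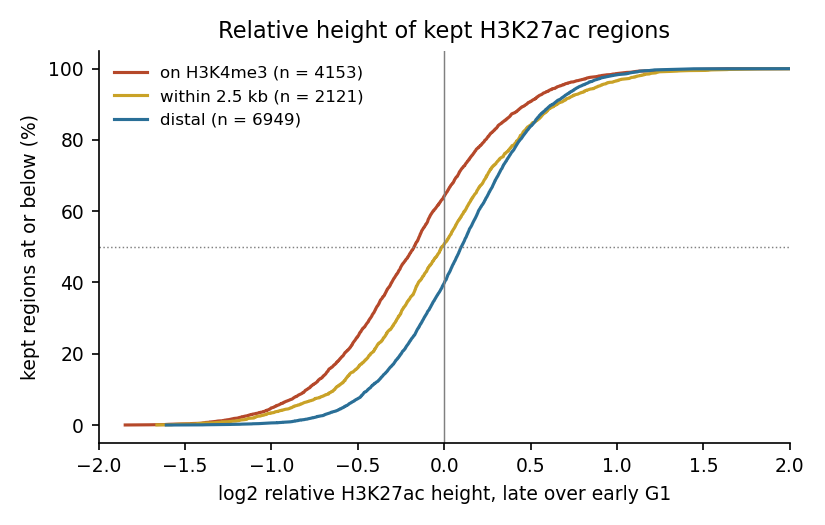
Cumulative share of kept H3K27ac regions (vertical axis, %) by log2 relative height, late over early G1 (horizontal axis), for each class. The curve for regions on H3K4me3 crosses 50% at -0.17 and the curve for distal regions at 0.10.

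Single kept regions were taken from 5139 pairs of 1 peak with 1 peak whose scores were better than both list medians, and are given at the position of the late G1 peak. The largest ratio was at chr6:159273601-159274575, a near region with a height of 162 in late G1 and 45.8 in early G1, or 5.97 and 1.49 times the medians of kept regions. It carried H3K4me1 in late G1 and S, and H3K4me3 in G2/M. A distal region at chr20:30182126-30182875 had 80.3 in late G1 and 28.3 in early G1 (log2 ratio of relative heights 1.68). A near region at chr2:67440826-67442300 had 75.3 in late G1 and 27.4 in early G1 (1.64), with peaks of 1475 bp and 175 bp. It carried H3K4me1 in late G1 and H3K4me3 in G2/M. The fourth, at chr1:150207901-150208450, lay on H3K4me3 in both phases and had 97.03 in late G1 and 35.9 in early G1 (1.62). All 4 were also listed for H3K27ac in S and in G2/M, as were 33.6% of all kept late G1 peaks.

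At the other end, late G1 heights of 21.7 to 30.9, around the kept-region median of 27.1, stood against some of the tallest early G1 peaks. The smallest ratio was at chr1:147735451-147735725, with a height of 26.6 in late G1 and 95.5 in early G1 (-1.66); it lay on H3K4me3 in early G1 and on none in late G1. The region at chr12:120731026-120731375, near in both phases, had 29.6 in late G1 and 96.96 in early G1 (-1.53). Regions on H3K4me3 in both phases had 30.9 in late G1 and 101 in early G1 at chr1:22109801-22110150 (-1.53), and 21.7 in late G1 and 70.3 in early G1 at chr8:90996601-90996725 (-1.52). None of these 4 carried H3K27me3 or H3K4me1 in any phase, and such overlap was rare among kept peaks. Of all kept late G1 peaks, 1.31% overlapped H3K27me3 in any phase and 7.91% H3K4me1 in S or G2/M. H3K27ac was listed in both S and G2/M at chr12:120731026-120731375 and chr1:22109801-22110150. At chr1:147735451-147735725 it was listed in G2/M alone, and at the region on chromosome 8 in neither.

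H3K4me3 stayed at most places where acetylation was lost. Of the 6865 lost peaks on H3K4me3 of early G1, 80.6% overlapped an H3K4me3 peak in late G1 too (79.6 to 81.5), and 91.0% overlapped one in S or G2/M. H3K27me3 was listed in late G1 at 1.65% of these places and in early G1 at 1.75%, so few of them were listed for the Polycomb mark in either phase. Of the 5339 kept early G1 peaks on H3K4me3, 86.9% overlapped H3K4me3 in late G1 (86.01 to 87.8). Of the 2036 gained peaks on H3K4me3 of late G1, 89.1% had H3K4me3 in early G1 already (87.7 to 90.5). That was a smaller share than the 97.7% of kept late G1 peaks on H3K4me3 (97.2 to 98.1). H3K27me3 was listed at 5.40% of these gained peaks in late G1 (4.46 to 6.48) and at 2.80% in early G1, next to 1.32% of kept peaks on H3K4me3 in late G1.

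The same was seen from the H3K4me3 side. Of 17367 H3K4me3 regions listed in both phases, 4753 carried acetylation in late G1 (27.4%) and 7049 in early G1 (40.6%). Both phases shared 4142 of these, 611 were acetylated in late G1 only and 2907 in early G1 only. Acetylation in late G1 thus lay largely within the set acetylated in early G1. The H3K4me3 regions that kept acetylation were the tall and long ones, with a median H3K4me3 width of 1375 bp in late G1 and 1700 bp in early G1. Those acetylated in early G1 only had 950 bp in late G1 and 1225 bp in early G1, and those with no acetylation 625 bp in late G1 and 725 bp in early G1.

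Retention of acetylation went with the height and span of H3K4me3 regions, a mark from other libraries. With the regions in 4 equal groups by relative H3K4me3 height averaged over both phases, 8.11% of the lowest group carried acetylation in late G1 and 13.9% in early G1. In the highest group, 59.2% carried it in late G1 and 76.4% in early G1. Of the regions acetylated in early G1, 44.9% of those in the lowest group still were in late G1 (40.7 to 49.1), against 71.9% in the highest (70.2 to 73.4). By span, the kept share ran from 39.0% among regions of up to 625 bp to 72.7% among those of at least 1700 bp.

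**Figure D5:**
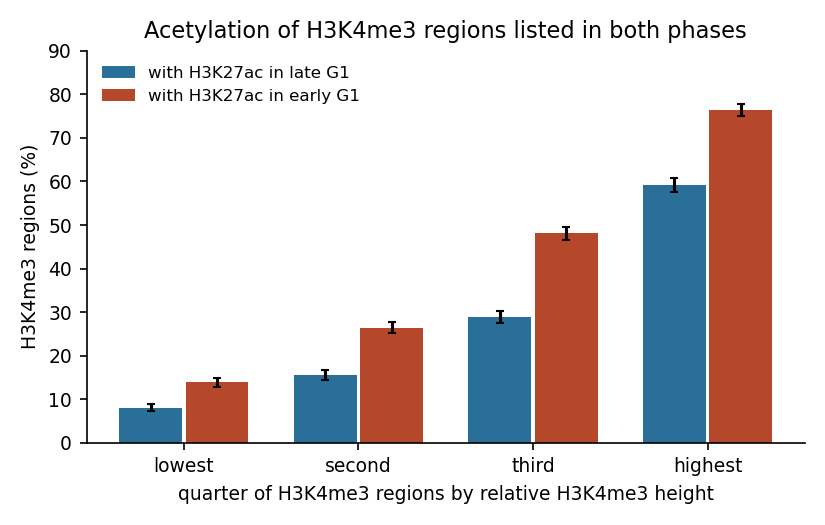
Share of H3K4me3 regions listed in both phases that carried an H3K27ac peak in late G1 (blue, left) and early G1 (red, right), in 4 equal groups by relative H3K4me3 height, with exact 95% intervals. Each group holds a smaller share in late G1, from 8.11% against 13.9% in the lowest to 59.2% against 76.4% in the highest.

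H3K4me3 heights also differed between these sets. The log2 ratio of relative H3K4me3 height, late over early G1, had a median of 0.53 over 567 regions acetylated in late G1 only (quartiles -0.07 and 1.21) and of -0.36 over 2732 regions acetylated in early G1 only (-0.73 and 0.11). It was -0.28 over 3978 regions acetylated in both phases and 0.32 over 9005 regions acetylated in neither. Regions without acetylation were low in H3K4me3, with a median of 0.701 times the library's median in late G1 and 0.564 times in early G1, and regions acetylated in both were high, at 1.84 times in late G1 and 2.24 times in early G1. The H3K4me3 height range was also narrower in the late G1 library, as given above, and its part in these ratios was not tested.

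Bivalent regions were acetylated rarely in both phases. Of 2956 H3K4me3 regions with H3K27me3 in both phases, 4.87% carried H3K27ac in late G1 (4.12 to 5.71) and 6.29% in early G1 (5.44 to 7.23). Of 13614 regions with H3K27me3 in neither, 33.4% carried it in late G1 (32.6 to 34.2) and 49.5% in early G1 (48.7 to 50.4). The share in late G1 was 0.774 times that in early G1 within Polycomb chromatin and 0.674 times outside it, so both sets were less often acetylated in late G1.

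H3K4me1 was listed more often at gained than at lost distal acetylation. Among gained distal peaks, 4.59% carried H3K4me1 in late G1 (4.21 to 4.99) and 0.985% in early G1. Among lost distal peaks, 0.336% carried it in late G1 and 1.70% in early G1 (1.39 to 2.05). The H3K4me1 lists differ in length, with 4017 peaks in late G1 and 1878 in early G1. The S and G2/M lists, which are common to both sets, marked 9.99% of gained distal peaks (9.45 to 10.5) and 2.17% of lost distal peaks (1.83 to 2.57). Kept distal peaks carried H3K4me1 in S or G2/M at 12.6% when counted from late G1 and 10.9% from early G1. By this measure gained distal peaks resembled kept ones more than lost ones did.

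Later phases listed a minority of the unshared peaks again. Of the gained peaks, 21.5% were listed in S or G2/M (20.9 to 22.1), 744 of them in both. Of the lost peaks, 13.5% were (12.9 to 14.1). On H3K4me3, 1704 of 2036 gained peaks (83.7%) and 6225 of 6865 lost peaks (90.7%) were in neither S nor G2/M, so listing in 1 phase of G1 alone was common to both sets. With the 10000 best-scored peaks of each list, 47.4% of gained and 28.3% of lost peaks were listed in S or G2/M, and on H3K4me3 35.2% of gained and 19.1% of lost peaks. At that length a peak also counts as gained or lost where its partner scored below the best 10000. Kept distal peaks, counted from late G1, were in S or G2/M at 68.9%. The S and G2/M lists are shorter, with 10268 and 19525 peaks.

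The tallest gained peaks on H3K4me3 were unlike their class. They lay at chr1:31904451-31905100 with a height of 97.2, chr21:44579776-44580700 with 77.2 and chr5:80255176-80255850 with 71.8. None of the 3 had H3K4me3 in early G1, unlike 89.1% of the class. All 3 overlapped H3K27me3 in S and G2/M, those on chromosomes 21 and 5 in late G1 too, and the one on chromosome 5 also in early G1, while 6.48% of the class overlapped H3K27me3 in any phase. Those on chromosomes 1 and 5 carried H3K4me1 in late G1, and the one on chromosome 21 in S and G2/M. In the class, 0.884% carried it in late G1 and 1.82% in S or G2/M. H3K27ac was listed again in S at all 3, and in G2/M at those on chromosomes 21 and 5, against 16.3% of the class in S or G2/M.

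The tallest gained near peaks all carried H3K4me1 in late G1, S and G2/M and not in early G1. They lay at chr10:134386276-134388150 (height 118), chr2:240212201-240212600 (80.3) and chr17:10029576-10030000 (71.5), and all were listed for H3K27ac again in S and G2/M. Of all 2799 gained near peaks, 3.36% carried H3K4me1 in late G1 and 7.11% in S or G2/M, and 5.11% were listed for H3K27ac in both S and G2/M. The one on chromosome 2 overlapped H3K27me3 in late G1, S and G2/M, and the one on chromosome 17 in G2/M. All 3 overlapped H3K4me3 in G2/M, against 10.1% of the gained near peaks, and the one on chromosome 2 in S too. The tallest gained distal peaks were at chr13:113527076-113527825 (111), chr13:112732926-112733550 (99.5) and chr18:72334676-72335500 (77.1). The first and the last carried none of the other 3 marks in any phase. Of all gained distal peaks, 1.12% overlapped H3K27me3 in any phase and 9.99% H3K4me1 in S or G2/M. The one at chr13:112732926-112733550 overlapped H3K27me3 in all 4 phases and H3K4me1 in late G1, S and G2/M. All 3 were listed for H3K27ac in S and G2/M, against 4.48% of the gained distal peaks.

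The tallest lost peaks on H3K4me3 kept that mark throughout. They lay at chr3:119814051-119814475 (height 75.8), chr10:28821626-28821950 (72.0) and chr7:26240626-26241050 (71.0). Each overlapped H3K4me3 in all 4 phases and neither H3K27me3 nor H3K4me1 in any, much like their class. Of the 6865 lost peaks on H3K4me3, 80.6% overlapped H3K4me3 in late G1. Of the same peaks, 2.23% overlapped H3K27me3 in any phase and 0.0583% H3K4me1 in S or G2/M. Acetylation was listed again in G2/M at the one on chromosome 3, in S at the one on chromosome 7 and in neither at the one on chromosome 10. In the class, 9.32% were listed again in S or G2/M. The tallest lost near peaks, at chr11:125932926-125933200 (56.2), chr4:15657126-15657450 (53.3) and chr11:69453226-69453650 (52.5), were listed in neither S nor G2/M. The same held for 84.6% of the 1626 lost near peaks. The one at chr11:69453226-69453650 overlapped H3K27me3 in late G1 and G2/M, and the one on chromosome 4 overlapped H3K4me3 in S. The tallest lost distal peaks were at chr9:16810551-16811075 (60.9), chr14:22025901-22026400 (58.8) and chr20:46187026-46187300 (56.1), and none carried another mark in any phase. Of the 6253 lost distal peaks, 0.768% overlapped H3K27me3 in any phase and 2.17% H3K4me1 in S or G2/M. H3K27ac was listed again in G2/M at the one on chromosome 9, in S and G2/M at the one on chromosome 14 and in neither at the one on chromosome 20.

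Other steps of the cycle were described in the same way. From late G1 to S, 12.3% of gained and 22.4% of lost peaks lay on H3K4me3. That lost share was near the 21.6% of all late G1 peaks on H3K4me3, and 76.9% of the list was lost. From S to G2/M 21.2% of gained and 14.7% of lost peaks lay on H3K4me3. Of the S peaks, 22.7% of those on H3K4me3 and 30.5% of distal ones were lost. From G2/M to early G1, 46.5% of gained peaks (45.8 to 47.2) and 11.4% of lost peaks lay on H3K4me3. Of all early G1 peaks, 40.5% did. Of the G2/M peaks, 21.4% of those on H3K4me3 and 44.8% of distal ones were lost. The shares of the whole S and G2/M lists on H3K4me3 are not given here. The shares of peaks gained in S or G2/M, or lost from them, therefore lack that background. The class difference in relative height of kept regions, on H3K4me3 minus distal, was -0.27 from early to late G1, -0.11 from late G1 to S, 0.04 from S to G2/M and 0.33 from G2/M to early G1. The first and last of these share the early G1 library, so they are not separate measurements of it. Whether the early G1 phase or the early G1 library carries the difference cannot be told apart with 1 library per phase.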

How the data were processed

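The labels define the groups, with a single library for every mark in every phase. Per the submitters' processing notes, which assign no roles, Bowtie 0.12.7 is named, and mm9 and hg19 appear as builds. The peak caller, its settings, the use of inputs and the read depth remain not given in the sources used here. Each deposited list holds the peaks of 1 library, with the authors' signal per peak (used as height), the authors' score (negative, more negative for taller peaks) and widths on a 25 bp grid. A height of 0 was treated as missing: in the H3K27ac lists of late and early G1 it was found on chromosomes with codes 22 to 24 and at 1 further early G1 peak, and the H3K27me3 lists of late and early G1 held 8 and 3 further ones.

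Overlap, classes, joined regions and relative heights were computed in Python 3.11.15 (scipy 1.17.1, pandas 2.3.3, numpy 2.4.6) and drawn with matplotlib 3.10.9. These steps were tested on simulated data. In a joined region the tallest peak of each phase was used, and the class is that of the late G1 peak unless said otherwise. H3K4me3 regions listed in both phases were joined in the same way, and spans run from the first to the last base of their peaks.

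Members, classes and alternatives were chosen with earlier results of these data known, and the best-scored setting for lost peaks listed later was added after seeing the data. Regions named are the 3 tallest gained and the 3 tallest lost peaks per class, the 4 largest and 4 smallest height ratios among 1-to-1 pairs, all with scores better than the list median, and the 3 windows of 1 Mb with the most gained and lost peaks. No p-value was computed. 4C and input libraries were not used here.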

Additional observations from a re-analysis of the deposited data

How the results depend on the processing

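No paired analysis was possible because each phase has 1 library per mark and no test was made. The first 6 results tried were the shares gained and lost, the shares of gained and of lost peaks on H3K4me3, the class difference in log2 relative height (on H3K4me3 minus distal), and the share of gained peaks listed in S or G2/M. In that order, the upper part of each list by score (16260 late and 15084 early G1 peaks) gave 48.7%, 47.1%, 16.3%, 59.3%, -0.23 and 24.6%. The 10000 best-scored peaks gave 48.7%, 50.4%, 19.1%, 62.6%, -0.22 and 47.4%, and, in a setting chosen after seeing the data, 28.3% of lost peaks listed in S or G2/M (13.5% with whole lists). Peaks of at least 250 bp gave 41.9%, 46.6%, 14.5%, 56.7%, -0.24 and 23.4%. Overlap of at least 50% of a peak gave 60.6% gained, 62.1% lost, 13.9% of gained on H3K4me3 and 17.5% listed later, and a gap of up to 500 bp gave 34.8%, 31.6%, 9.51% and 27.3% for these, with 52.7% of lost on H3K4me3. H3K4me3 of any phase gave 16.3% of gained and 47.8% of lost on H3K4me3. The other 13 of 43 values stayed within the interval of the reported value, among them all 6 without peaks on H3K27me3. No alternative reversed the class difference. With 1 library per phase, a difference between phases and one between libraries cannot be told apart, and the depth of the lists is unknown here.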

Other observations

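The turnover of acetylation differed between gene-dense and sparse parts of the genome, taking H3K4me3 regions as a guide to promoters. In 77 windows of 1 Mb without any H3K4me3 region, 216 peaks were gained and 68 lost, a ratio of 3.18. In windows with 1 to 5 such regions the ratio was 1.98, in those with 6 to 15 it was 1.27, and in 568 windows with over 15 it was 0.668, with 4087 gained and 6116 lost. For distal peaks alone the ratios were 3.18, 2.59, 1.95 and 1.21 in the same order, so they too declined with H3K4me3 density. Among the 22 autosomes, chromosome 19, the densest with 37.04 H3K4me3 regions per Mb, had the smallest share of late G1 peaks gained (37.3%) and the largest share of early G1 peaks lost (60.2%). Chromosome 21 had the largest share gained (58.3%), and chromosome 13 the smallest share lost (40.2%). Across the 22 autosomes, which share the same libraries, the density of H3K4me3 regions and the ratio of late to early G1 peak numbers had a Spearman rho of -0.793. With the share of all late G1 peaks gained the density had a rho of -0.726, and with that of all early G1 peaks lost 0.644. Within classes these values were weaker. The density had a rho of -0.573 with the share of distal peaks gained and 0.558 with that of distal peaks lost. On H3K4me3 the values were -0.284 with the share gained and 0.30 with the share lost. The mix of classes also differed between chromosomes, with 25.1% of late G1 peaks distal on chromosome 19 and 67.6% on chromosome 21.

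Windows were ranked by number, so windows with many peaks rank high. Over the whole lists 50.5% of late G1 peaks were gained and 48.9% of early G1 peaks lost. The 3 windows with the most gained peaks lay on chromosomes 3, 4 and 1. From 61000001 to 62000000 on chromosome 3, 43 of 65 late G1 peaks were gained and 26 of 47 early G1 peaks lost. From 93000001 to 94000000 on chromosome 4, 38 of 56 were gained and 8 of 28 lost. From 144000001 to 145000000 on chromosome 1, 36 of 64 were gained and 11 of 36 lost. These windows held 5, 7 and 8 H3K4me3 regions. The 3 windows with the most lost peaks held 44 to 49 such regions. From 27000001 to 28000000 on chromosome 1, 17 of 45 late G1 peaks were gained and 37 of 59 early G1 peaks lost. From 156000001 to 157000000 on chromosome 1, 21 of 72 were gained and 35 of 84 lost, a smaller share lost than in the whole list. From 73000001 to 74000000 on chromosome 17, 9 of 24 were gained and 34 of 48 lost. Lost peaks also lay more often within 5 Mb of the first or last position of a chromosome: 9.55% of lost peaks did (9.08 to 10.04), against 6.39% of kept early G1 peaks, 6.13% of gained peaks and 6.34% of kept late G1 peaks. The last position was taken as the highest coordinate in any list.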
